A study of Mus musculus with 12 samples.

Results

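A set of 6 protein-coding genes, of 35709 genes in the deposited table, is described across the 4 groups of the study: A2ml1, Nox4, Fhl2, Ildr2, Npr2 and Epb41l2. They were chosen by their normalized counts, as genes that separated Alb-R3 from Alb-Cre hepatocytes after carbon tetrachloride (CCl4). The genotype gap after CCl4 is set beside the gap after oil, and because the choice used both gaps they are given as a description, without a test. Primary hepatocytes were isolated by perfusion with Liberase and a Percoll gradient from male mice (C57BL/6J, 8 to 10 weeks old), with 3 libraries in each group. Alb-R3 mice are labelled as lacking Fgfr3, a receptor tyrosine kinase for fibroblast growth factors, in hepatocytes only, through Cre driven by the albumin promoter. Alb-Cre mice carry the Cre transgene and served as controls. Alb-R3 CCl4 and Alb-Cre CCl4 mice were injected once into the peritoneum with CCl4 (0.4 mg/g, dissolved in olive oil), and Alb-R3 oil and Alb-Cre oil mice received the vehicle, each 48 h before the hepatocytes were taken. Whether the 3 libraries of a group are 3 animals is not stated, so p-values measure only the spread between libraries, which may be technical.

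CCl4 is converted to reactive radicals by a cytochrome P450 of pericentral hepatocytes, which injures those cells, and the surviving hepatocytes then enter the cell cycle. The 6 genes belong to no single pathway. A2ml1 encodes a relative of alpha-2-macroglobulin, a family of secreted proteins that trap proteases. Npr2 encodes the receptor guanylyl cyclase for C-type natriuretic peptide, which makes the second messenger cGMP. Ildr2 encodes an immunoglobulin-like receptor of the angulin family, whose relatives sit where the corners of epithelial cells meet, and in the mouse liver it has been linked to lipid handling. Nox4 encodes an NADPH oxidase that mainly releases hydrogen peroxide. Epb41l2 encodes a protein 4.1 that ties membrane proteins to the spectrin and actin skeleton. Fhl2 encodes a LIM-only adaptor that shuttles between adhesion sites and the nucleus as a transcriptional co-regulator.

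Each library summed to between 27215010 and 38828902 normalized counts. All 8 hepatocyte markers were detected in each group, and their sum was 82537 to 116724 CPM (normalized counts scaled to a common library total) in 11 libraries. The library labelled Alb-R3 CCl4 replicate 1 stood apart, with 32.3% of its normalized counts in mitochondrially encoded genes against 6.22% to 12.8% in the other 11 libraries. The CPM total includes these mitochondrial counts, which lowers the CPM of every other gene in this library. Its hepatocyte sum was lower, at 59320 CPM, and its lymphocyte and neutrophil markers summed to 25.1 CPM, beside at most 1.04 CPM in the others. Most of those 25.1 CPM came from S100a8 and S100a9 (376.6 and 504.5 normalized counts), with each other marker of that list at 6.19 or less. Fgfr3, the gene labelled as deleted, had 477.7, 372.1 and 382.3 normalized counts in Alb-R3 CCl4 libraries, against 950.9, 705.7 and 753.0 in Alb-Cre CCl4 libraries. After oil it stood at 523.1, 650.5 and 1109 in libraries labelled Alb-R3 and at 734.9, 887.6 and 988.1 in Alb-Cre libraries, and the value of 1109, the highest of the 12, belongs to the library labelled Alb-R3 oil replicate 3 and goes against that label. The log2 difference did not pass after CCl4 (-0.96 ± 0.24 SE, limma adjusted p = 0.252) or after oil (-0.26 ± 0.24, adjusted p = 1). Which exons were deleted is not stated, and counts over whole transcripts may include shortened ones. In Alb-R3 oil replicate 3, Npr2 (1854 normalized counts) and Epb41l2 (56.77) were near the other Alb-R3 oil libraries, while Ildr2 (29.59) was near neither oil group. Hepatocytes make up most but not all of such preparations, and in libraries of this kind fewer cells of a type and less RNA per cell cannot be told apart.

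The sequences around the starts of 4 members are shown because the results turn on these genes and their windows lie at the start of the gene model or inside its first part: 250 bases before to 50 bases after the transcription start, from RefSeq on GRCm38.p6, 5′ to 3′ along the gene. Capitals mark matches, on either strand, to 6 short motifs that do not overlap one another here. The core promoter box that binds TBP was searched as TATAAA, the box bound by Sp1 family factors as GGGCGG, and the box bound by NF-Y as CCAAT. The element of the factor AP-1 was searched as TGANTCA, that of the TEAD factors as GGAATG, and a part of the site of the liver factor HNF1 as GTTAAT.
A2ml1 (chr6:128581557-128581856, minus strand): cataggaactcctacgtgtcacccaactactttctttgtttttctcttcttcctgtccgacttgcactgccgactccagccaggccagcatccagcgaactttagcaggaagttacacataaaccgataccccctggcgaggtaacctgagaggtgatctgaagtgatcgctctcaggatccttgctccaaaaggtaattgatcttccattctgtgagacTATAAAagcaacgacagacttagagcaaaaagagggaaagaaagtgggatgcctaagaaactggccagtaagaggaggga
Npr2 (chr4:43631685-43631984, plus strand): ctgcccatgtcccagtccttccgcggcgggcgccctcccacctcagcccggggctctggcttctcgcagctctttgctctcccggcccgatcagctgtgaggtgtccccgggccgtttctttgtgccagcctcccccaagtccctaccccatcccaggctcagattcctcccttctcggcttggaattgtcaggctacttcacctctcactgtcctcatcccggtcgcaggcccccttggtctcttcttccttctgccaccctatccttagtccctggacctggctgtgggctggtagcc
Ildr2 (chr1:166253889-166254188, plus strand): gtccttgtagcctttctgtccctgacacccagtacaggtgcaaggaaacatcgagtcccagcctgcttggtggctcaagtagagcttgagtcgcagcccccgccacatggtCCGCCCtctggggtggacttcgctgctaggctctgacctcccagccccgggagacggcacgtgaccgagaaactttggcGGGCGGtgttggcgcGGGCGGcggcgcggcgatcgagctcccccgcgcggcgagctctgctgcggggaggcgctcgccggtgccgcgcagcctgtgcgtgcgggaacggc
Nox4 (chr7:87246399-87246698, plus strand): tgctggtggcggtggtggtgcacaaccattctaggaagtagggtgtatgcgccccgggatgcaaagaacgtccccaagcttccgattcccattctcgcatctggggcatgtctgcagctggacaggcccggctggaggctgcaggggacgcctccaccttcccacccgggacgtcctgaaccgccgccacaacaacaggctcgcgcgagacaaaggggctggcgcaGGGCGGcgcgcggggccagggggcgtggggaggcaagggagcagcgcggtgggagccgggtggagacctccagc
The A2ml1 promoter held 1 TATA box, 30 bases before the start, a motif found in 13.6% of 32851 promoters of this length. The Ildr2 promoter held 3 GC boxes and that of Nox4 held 1, and 35.7% of all promoters held at least 1. None of the 6 motifs occurred in the Npr2 window. The AP-1, TEAD and HNF1 letters occurred in none of the 4 windows, as in most promoters, of which 7.81%, 14.7% and 7.10% held them. Base composition differed among them, with a GC content of 47.7% for A2ml1, 64.0% for Npr2, 69.0% for Ildr2 and 68.3% for Nox4, against a median of 52.7% over all promoters.

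A2ml1 (ENSMUSG00000047228, chromosome 6, 128539821 to 128581608, minus strand, GRCm38) was high after CCl4 in Alb-R3 hepatocytes and low in Alb-Cre hepatocytes. Its normalized count was 2569, 1552 and 1363 in Alb-R3 CCl4 libraries, against 108.9, 187.9 and 458.9 in Alb-Cre CCl4 libraries. After oil it was 1299, 1419 and 2129 in Alb-R3 libraries, against 1185, 851.7 and 1334 in Alb-Cre libraries. The Alb-Cre CCl4 libraries thus stood alone at the bottom without overlapping any other group. The Alb-R3 oil group overlapped both Alb-R3 CCl4 and Alb-Cre oil, which did not overlap each other. The genotype gap was 3.05 ± 0.42 (log2 difference on the log2(normalized count + 1) scale ± SE, n = 3 per group) after CCl4 and 0.51 ± 0.42 after oil. The gap after CCl4 was larger in size than that of 99.7% of the 20244 tested genes, a description of a value that chose the gene. Without the library Alb-R3 CCl4 replicate 1, which had the highest A2ml1 value, the gap after CCl4 was 2.78. The gap after oil was 0.30 when the library labelled Alb-R3 oil replicate 3 was left out.

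The CCl4 effect averaged over both genotypes was the comparison left for a test. It is uncorrelated with the genotype gaps only if the design is balanced and the libraries are equally variable. Estimated library weights ran from 0.217 to 3.66, and the balance is lost when a library is left out. A gap that changes with treatment also needs a CCl4 response in at least 1 genotype, so a pass is no independent support for the members. For A2ml1 the averaged effect was -1.11 ± 0.29 (limma, Benjamini-Hochberg adjusted p = 0.0161), an average of a log2 difference of 0.16 ± 0.42 in Alb-R3 and -2.38 ± 0.42 in Alb-Cre. This call was lost with FPKM values (adjusted p = 0.054), with no filter on low values (0.0965) and with scaling to the non-mitochondrial total (0.0585). Of 8 other tested genes of the alpha-macroglobulin family and its receptor, 0 passed in the averaged CCl4 comparison with limma, where 21.6% of tested genes did. Their median log2 difference was -0.19, beside 0.02 for all tested genes. Without Alb-R3 CCl4 replicate 1, 1 of the 8 was lower. Between genotypes after CCl4 the median of the 8 was -0.40, and 0 passed. Pzp, the mouse pregnancy zone protein and an abundant relative of A2ml1, stood between 1601 and 2851 FPKM in Alb-R3 CCl4 libraries, against 2289 to 5115 FPKM in Alb-Cre CCl4 libraries. Mug1 (488.7 to 1084 against 1327 to 1688 FPKM) and Mug2 (179.3 to 199.3 against 288.0 to 309.5 FPKM) were lower in Alb-R3 CCl4 without overlap, opposite to A2ml1. A2m had a gap of the other sign (1.29), at low counts. A2ml1 itself ran at 26.7 to 38.5 FPKM in Alb-R3 CCl4 libraries, against 1.99 to 8.49 FPKM in Alb-Cre CCl4 libraries. Few sequences are shared, since 0.556% of the 7741 stretches of 31 bases in A2ml1 transcripts occur in transcripts of another gene.

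**Figure D1:**
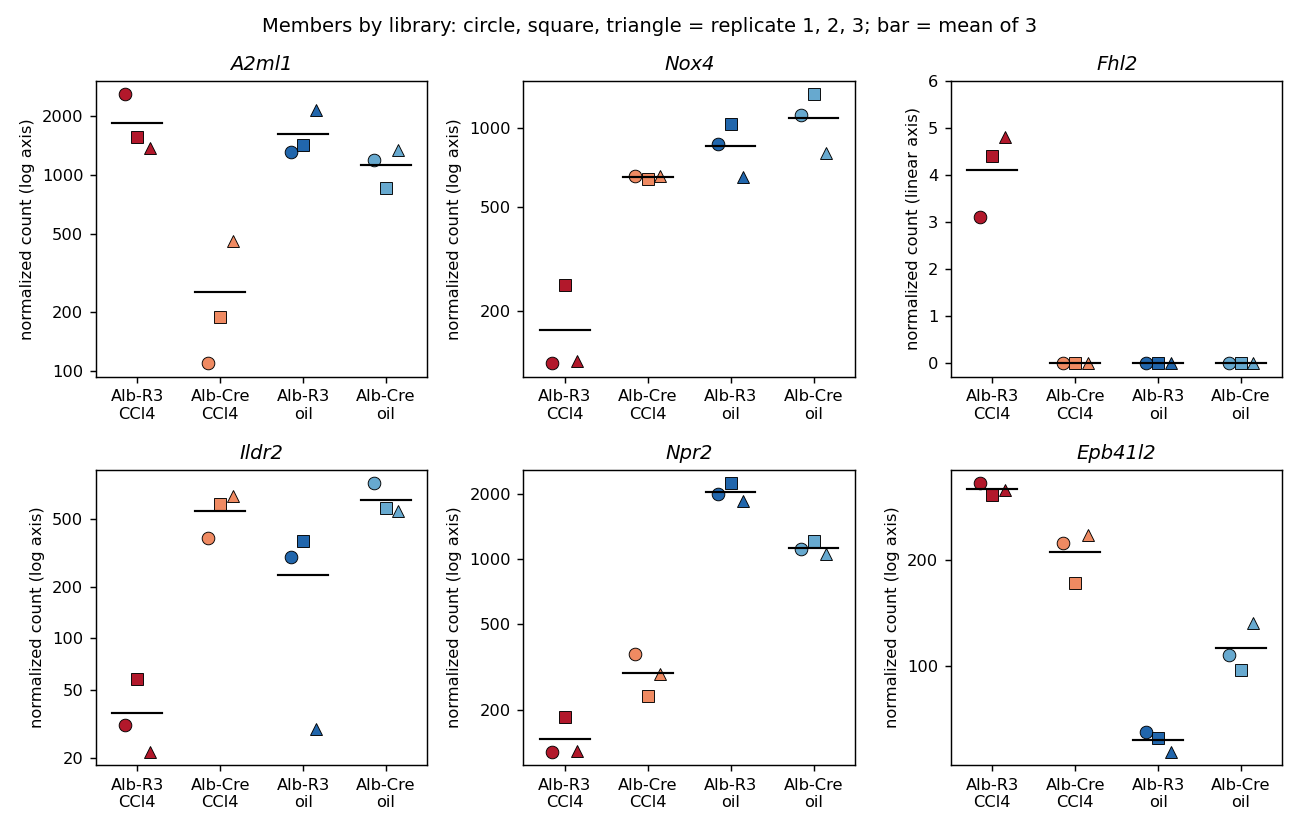
Normalized count of each of the 6 genes in each library (log axis, except a linear axis for Fhl2), by group from left to right Alb-R3 CCl4, Alb-Cre CCl4, Alb-R3 oil and Alb-Cre oil; symbols are replicates and bars are means of 3. In A2ml1 the Alb-Cre CCl4 libraries lie lowest, between 108.9 and 458.9, in Nox4 and Npr2 the Alb-R3 CCl4 libraries do, and Ildr2 has 1 Alb-R3 oil library at 29.6 beside the Alb-R3 CCl4 values.

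Npr2 (ENSMUSG00000028469, chromosome 4, 43631935 to 43651244, plus strand) fell strongly after CCl4, and its genotype order turned round between treatments. It had 127.9, 184.6 and 129.9 normalized counts in Alb-R3 CCl4 libraries, against 364.6, 233.3 and 292.6 in Alb-Cre CCl4 libraries. After oil it had 1998, 2236 and 1854 in Alb-R3 libraries, against 1110, 1208 and 1054 in Alb-Cre libraries. No group overlapped its neighbour in the order from high to low, with Alb-R3 oil first, then Alb-Cre oil, then Alb-Cre CCl4, and Alb-R3 CCl4 last. The gap was -1.002 ± 0.19 after CCl4 and 0.85 ± 0.19 after oil, so the Npr2 values go against a split mainly after CCl4, with gaps of opposite sign after the 2 treatments. Without Alb-R3 CCl4 replicate 1 the gap after CCl4 was -0.91, and the gap after oil was 0.91 when the library labelled Alb-R3 oil replicate 3 was left out. Averaged over genotypes, Npr2 fell by 2.86 ± 0.14 on the log2 scale (limma adjusted p = 5.24e-08), with -3.79 ± 0.19 in Alb-R3 and -1.94 ± 0.19 in Alb-Cre. The fall held in each of the 22 alternatives, with adjusted p of at most 2.18e-05.

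Of the other 13 tested genes of natriuretic peptide and cGMP signalling, 3 rose and 1 fell in the averaged CCl4 comparison, where 12.8% of all tested genes rose and 8.78% fell. Without Alb-R3 CCl4 replicate 1 there were 4 and 1 of 12 tested. Pde5a, a phosphodiesterase that breaks down cGMP, rose by 1.36 ± 0.28 (limma adjusted p = 0.00417), with means of 22.0 ± 4.12 (SD, n = 3) in Alb-R3 CCl4 and 18.1 ± 2.27 in Alb-Cre CCl4 libraries, against 4.51 ± 1.55 in Alb-R3 oil and 11.2 ± 1.75 in Alb-Cre oil libraries. The peptide that binds the receptor was at the edge of detection: Nppc was at 3.095, 0 and 0 in Alb-R3 CCl4 libraries and at 0.972, 1.14 and 0.831 in Alb-Cre CCl4 libraries. Npr1, the receptor for the atrial and brain peptides, had 2.78, 3.85 and 4.39 FPKM in Alb-R3 CCl4 libraries, against 4.38, 2.60 and 5.23 FPKM in Alb-Cre CCl4 libraries. Per length, Npr2 overlapped Npr1 after CCl4, at 2.31, 4.08 and 3.06 FPKM in Alb-R3 and 8.00, 4.67 and 6.50 FPKM in Alb-Cre libraries. After oil Npr2 was far above Npr1, at 36.3, 40.1 and 30.6 FPKM in Alb-R3 libraries where Npr1 had 1.63, 1.10 and 2.11 FPKM.

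Ildr2 (ENSMUSG00000040612, chromosome 1, 166254139 to 166316823, plus strand) was low in Alb-R3 hepatocytes after both treatments and lowest after CCl4. It had 30.98, 57.89 and 21.65 normalized counts in Alb-R3 CCl4 libraries, against 385.3, 615.7 and 679.5 in Alb-Cre CCl4 libraries. After oil it had 301.2, 372.0 and 29.59 in Alb-R3 libraries, against 812.0, 580.8 and 560.1 in Alb-Cre libraries. The genotypes did not overlap after either treatment. A single library, that labelled Alb-R3 oil replicate 3, lay about as low as the Alb-R3 CCl4 libraries, and it is the library whose Fgfr3 value went against its label. With it, the gap was -3.96 ± 0.71 after CCl4 and -2.09 ± 0.71 after oil. Without it, the gap after oil was -0.94 ± 0.37 and the difference of the gaps (CCl4 minus oil) was -3.03 ± 0.50, against -1.88 ± 1.01 with all libraries. With all libraries, the gap after oil was larger in size than that of 99.1% of tested genes. Without Alb-R3 CCl4 replicate 1 the gap after CCl4 was -3.90.

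Averaged over genotypes, the CCl4 effect on Ildr2 was -1.17 ± 0.50 and did not pass (limma adjusted p = 0.116). It passed without Alb-R3 oil replicate 3 (-1.75, adjusted p = 0.000493) and with library weights (-1.42, adjusted p = 0.0167). In Alb-R3 the log2 difference was -2.11 ± 0.71, and in Alb-Cre it was -0.24 ± 0.71. Among 11 tested genes of angulins, B7 relatives and the junctions between epithelial cells, 3 rose and 0 fell in the averaged comparison, also without Alb-R3 CCl4 replicate 1. Of all tested genes 12.8% rose and 8.78% fell there. Vsir, an immune checkpoint of the B7 family found on myeloid cells, rose by 1.53 ± 0.29 (limma adjusted p = 0.00228). It had 188.8, 57.87 and 77.74 normalized counts in Alb-R3 CCl4 libraries, the highest in replicate 1. Without that library the Alb-R3 CCl4 mean was 67.8, beside means of 56.9 in Alb-Cre CCl4, 17.3 in Alb-R3 oil and 36.5 in Alb-Cre oil libraries. Lsr, an angulin abundant in hepatocytes, had 82.0, 132.7 and 128.0 FPKM in Alb-R3 CCl4 libraries, against 123.8, 124.6 and 133.4 FPKM in Alb-Cre CCl4 libraries. Ildr2 was far below it, at 0.290, 0.663 and 0.264 FPKM in Alb-R3 CCl4 and 4.38, 6.38 and 7.83 FPKM in Alb-Cre CCl4 libraries.

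Nox4 (ENSMUSG00000030562, chromosome 7, 87246096 to 87398710, plus strand) fell after CCl4 on average over the genotypes, and was lowest in Alb-R3 CCl4 libraries. It had 125.9, 250.5 and 128.8 normalized counts in Alb-R3 CCl4 libraries, against 656.3, 637.1 and 655.0 in Alb-Cre CCl4 libraries. After oil it had 869.9, 1030 and 647.3 in Alb-R3 libraries, against 1117, 1341 and 804.3 in Alb-Cre libraries. The 3 Alb-R3 CCl4 libraries lay below all others, the oil groups overlapped, and the Alb-Cre CCl4 libraries, close to one another, overlapped the Alb-R3 oil group. The gap was -2.02 ± 0.27 after CCl4 and -0.35 ± 0.27 after oil, and without Alb-R3 CCl4 replicate 1 the gap after CCl4 was -1.85. The gap after oil was -0.17 when the library labelled Alb-R3 oil replicate 3 was left out. Averaged over genotypes the CCl4 effect was -1.54 ± 0.19 (limma adjusted p = 8.73e-05), which held in each of the 22 alternatives (adjusted p of at most 0.00264). It combined -2.38 ± 0.27 in Alb-R3 and -0.71 ± 0.27 in Alb-Cre.

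Of 10 other tested genes of NADPH oxidases and their partners, 3 rose with CCl4 on average (Noxa1, Rac2 and Cybb) and 0 fell, where 12.8% of all tested genes rose and 8.78% fell. The median log2 difference of the 10 was 1.26, beside 0.02 for all tested genes. Without Alb-R3 CCl4 replicate 1, 4 rose and the median was 0.83. Rac2 lost its call in 15 of the 22 alternatives (adjusted p up to 0.208) and Cybb in 2 (up to 0.104). In Alb-Cre their means differed between treatments by less than 1 SD, with Rac2 at 40.4 in Alb-Cre CCl4 and 43.1 in Alb-Cre oil libraries and Cybb at 44.4 in Alb-Cre CCl4 and 45.3 in Alb-Cre oil libraries. Noxa1, an activator of the Nox1 oxidase, rose by 2.34 ± 0.52 (limma adjusted p = 0.00619), at low values, with 26.82, 9.522 and 3.206 normalized counts in Alb-R3 CCl4 and 1.945, 9.150 and 4.987 in Alb-Cre CCl4 libraries, against 0, 1.133 and 0 in Alb-R3 oil and 2.100, 0.972 and 0 in Alb-Cre oil libraries. Cyba, the membrane subunit that pairs with Nox4 and with the phagocyte oxidase, had 1087, 67.39 and 76.13 normalized counts in Alb-R3 CCl4 libraries, against 51.34, 64.05 and 39.06 in Alb-Cre CCl4 libraries. The library that stood apart by its mitochondrial share was also the one with the high Cyba value, and it had the highest summed Kupffer cell and macrophage markers of the 12 libraries, at 430.2 CPM. The part of macrophage RNA in the values of these partners was not tested. For genes that remove hydrogen peroxide and superoxide, 2 of 14 rose and 5 fell in the averaged comparison without Alb-R3 CCl4 replicate 1. With all libraries 1 rose and 4 fell, beside 12.8% and 8.78% of all tested genes. Each of these 4 falls was lost with scaling to the non-mitochondrial total (adjusted p of 0.0861 for Gpx1, 0.254 for Sod1, 0.242 for Sod2 and 0.581 for Txn1).

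Epb41l2 (ENSMUSG00000019978, chromosome 10, 25359798 to 25523519, plus strand) rose after CCl4 on average over the genotypes, and its genotype order turned round between treatments as that of Npr2 did. It had 331.2, 306.9 and 315.9 normalized counts in Alb-R3 CCl4 libraries, against 223.6, 171.9 and 235.3 in Alb-Cre CCl4 libraries. After oil it had 64.61, 62.33 and 56.77 in Alb-R3 libraries, against 107.1, 97.49 and 132.5 in Alb-Cre libraries. In the order from high to low, Alb-R3 CCl4, Alb-Cre CCl4, Alb-Cre oil and Alb-R3 oil, no group overlapped its neighbour. The gap was 0.61 ± 0.20 after CCl4 and -0.86 ± 0.20 after oil, so here too the values go against a split mainly after CCl4. Without Alb-R3 CCl4 replicate 1 the gap after CCl4 was 0.58, and the gap after oil was -0.80 when the library labelled Alb-R3 oil replicate 3 was left out. The average rise was 1.63 ± 0.14 (limma adjusted p = 3.89e-06) and held in each of the 22 alternatives. It combined 2.36 ± 0.20 in Alb-R3 and 0.90 ± 0.20 in Alb-Cre.

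Of 16 other tested genes of the protein 4.1 family and membrane skeleton, 5 rose and 0 fell on average, where 12.8% of all tested genes rose and 8.78% fell, and 8 rose and 1 fell without Alb-R3 CCl4 replicate 1. Msn, moesin, which links actin to the membrane, rose by 1.76 ± 0.24 (limma adjusted p = 0.000188), with means of 553.9 ± 351.8 (SD, n = 3) in Alb-R3 CCl4 and 259.8 ± 42.9 in Alb-Cre CCl4 libraries, against 77.5 ± 6.90 in Alb-R3 oil and 140.6 ± 20.6 in Alb-Cre oil libraries. The Alb-R3 CCl4 mean of Msn rested on replicate 1 (953.3, 290.1 and 418.4). Without that library it was 354.2, and the value of 290.1 overlapped Alb-Cre CCl4 (218.5 to 304.2). Sptbn1, a beta spectrin, rose by 0.73 ± 0.13 (adjusted p = 0.00155). The means of Msn had the group order of Epb41l2, whereas the spectrin means did not (1525 in Alb-R3 CCl4 and 1615 in Alb-Cre CCl4 libraries). Epb41, the founding member of the family, ran at 14.8 to 19.4 FPKM in Alb-R3 CCl4 libraries, against 13.6 to 18.6 FPKM in Alb-Cre CCl4 libraries. Epb41l2 was lower per length, at 4.88 to 6.08 FPKM in Alb-R3 CCl4 libraries, against 2.81 to 4.27 FPKM in Alb-Cre CCl4 libraries.

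Markers of 3 other liver cell types had an order after oil similar to that of Epb41l2. The summed level of 12 stellate cell and fibroblast markers ran from 56.9 to 182.3 CPM in Alb-R3 CCl4 and from 87.9 to 144.6 in Alb-Cre CCl4 libraries, and from 31.3 to 37.9 in Alb-R3 oil, against 63.6 to 84.8 in Alb-Cre oil libraries. For 12 Kupffer cell and macrophage markers the ranges were 89.4 to 430.2 in Alb-R3 CCl4, 55.2 to 72.9 in Alb-Cre CCl4, 27.1 to 34.2 in Alb-R3 oil and 41.7 to 82.0 in Alb-Cre oil libraries. For 10 endothelial markers they were 87.4 to 204.9 in Alb-R3 CCl4, 117.2 to 196.2 in Alb-Cre CCl4, 56.4 to 60.9 in Alb-R3 oil and 107.3 to 137.6 in Alb-Cre oil libraries. After oil, each of the 3 sums was lower in every Alb-R3 library than in every Alb-Cre library, as Epb41l2 was, while after CCl4 the macrophage sum did not overlap between genotypes and the other 2 did. In CPM the lowest stellate and endothelial sums of the CCl4 libraries came from Alb-R3 CCl4 replicate 1, whose mitochondrial share lowers them. Epb41l2 had its highest normalized count of any library there, 331.2, but its lowest FPKM of that group (4.88, against 5.54 and 6.08). Without that library the Alb-R3 CCl4 stellate sum ran from 144.0 to 182.3 CPM and the endothelial sum from 186.8 to 204.9 CPM. The lower value of each still lay inside the Alb-Cre CCl4 range. With replicate 1 left out, the stellate ranges had the group order of Epb41l2, with overlap between the CCl4 groups. The macrophage and endothelial ranges of Alb-Cre CCl4 overlapped those of Alb-Cre oil, whereas Epb41l2 did not overlap there. No marker of these 3 lists was at 0 in a whole group except Acta2 in Alb-Cre oil. Sums of cholangiocyte, erythroid, and lymphocyte and neutrophil markers overlapped between genotypes after oil. In Alb-R3 oil libraries they ran from 22.2 to 25.3, 80.0 to 98.9 and 0.159 to 0.213 CPM. In Alb-Cre oil libraries they ran from 19.1 to 24.2, 53.1 to 120.0 and 0.168 to 0.574 CPM. In the averaged CCl4 comparison 9 of the 12 stellate, 5 of the 12 macrophage and 6 of the 10 endothelial markers rose, where 12.8% of all tested genes did. Without Alb-R3 CCl4 replicate 1, 11, 6 and 9 of these markers rose. The part of other cells in the values of Epb41l2 and its relatives was not tested.

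**Figure D2:**
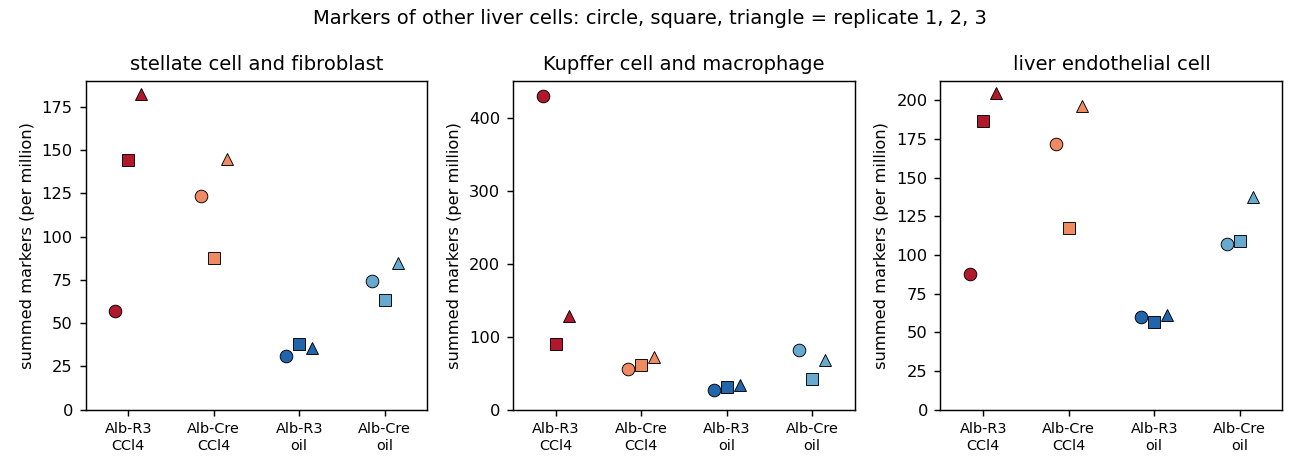
Summed normalized counts of markers of 3 other liver cell types, in CPM (linear axes from 0), by group; symbols are replicates. Alb-R3 oil libraries lie below Alb-Cre oil libraries in each panel, and the macrophage sum of Alb-R3 CCl4 replicate 1 stands at 430.2.

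Fhl2 (ENSMUSG00000008136, chromosome 1, 43123074 to 43196984, minus strand) was close to the limit of detection. It had 3.095, 4.395 and 4.809 normalized counts in Alb-R3 CCl4 libraries and was listed at 0 in the 9 libraries of the other groups. Divided by the value of 1 read in each library, these are 3, 6 and 6 estimated reads, 15 in all. A count of 0 allows up to 3 reads in a library, or between 2.20 and 3.58 normalized counts, so that the Alb-R3 CCl4 replicate 1 value lies within what a listed 0 allows. No fold is given against groups at 0. Fhl2 entered the fit only through the 3 Alb-R3 CCl4 libraries, since the filter asked for a value of at least 1 in 3 libraries, so it had to differ and it gets no test. Its relatives were better measured. Of 12 tested LIM-only and related adaptors 5 rose and 1 fell with CCl4 on average, as they did in number without Alb-R3 CCl4 replicate 1. Among all tested genes 12.8% rose and 8.78% fell. Fhl3 rose by 2.91 ± 0.39 (limma adjusted p = 0.000154), with 145.1, 81.97 and 43.70 normalized counts in Alb-R3 CCl4 and 29.91, 43.80 and 35.28 in Alb-Cre CCl4 libraries, against 7.512, 10.52 and 6.609 in Alb-R3 oil and 2.100, 4.306 and 11.08 in Alb-Cre oil libraries. Csrp1, an actin-binding LIM protein, rose by 2.77 ± 0.15 (adjusted p = 9.96e-08), and its muscle relative Csrp3 fell by 1.41 ± 0.20 (adjusted p = 0.000242).

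Set side by side, the 6 genes did not share 1 pattern. After CCl4 the genotypes did not overlap in A2ml1, Nox4, Ildr2, Npr2 and Epb41l2, the feature by which they were chosen, and 12% of the tested genes had non-overlapping genotypes there (6.16% with Alb-R3 higher, as in A2ml1 and Epb41l2, and 5.86% with Alb-R3 lower, as in Nox4, Ildr2 and Npr2). Fhl2 is not counted, since a listed 0 allows its lowest Alb-R3 CCl4 value. After oil they did not overlap in Ildr2, Npr2 and Epb41l2, against 11.3% of tested genes. A2ml1 and Nox4 are thus the members whose genotypes overlapped after oil and not after CCl4, as in 10.2% of tested genes. Npr2 and Epb41l2 had opposite non-overlapping orders after the 2 treatments, as in 0.943% of tested genes (0.657% in the order of Epb41l2 and 0.287% in that of Npr2). The gap was larger in size after CCl4 than after oil in A2ml1, Nox4, Ildr2 and Npr2 and smaller in Epb41l2, and it was larger after CCl4 in 55.1% of tested genes. For Npr2 the sizes differed by less than 1 SE, and leaving out Alb-Cre CCl4 replicate 1 turned their order (-0.84 after CCl4 and 0.85 after oil). In the averaged CCl4 comparison, 4 of the 5 members tested passed (A2ml1, Nox4 and Npr2 lower, Epb41l2 higher), against 21.6% of tested genes (12.8% higher and 8.78% lower). This is no evidence of an excess, since genes chosen for gaps that differ between treatments must respond to CCl4 in at least 1 genotype. The share of all genes that passed was 0.173% for Alb-R3 against Alb-Cre after CCl4 (0.084% higher, 0.0889% lower), 0.207% after oil (0.0988% higher, 0.109% lower) and 0% for the difference of the gaps, where 1516 genes had an unadjusted limma p under 0.05.

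**Figure D3:**
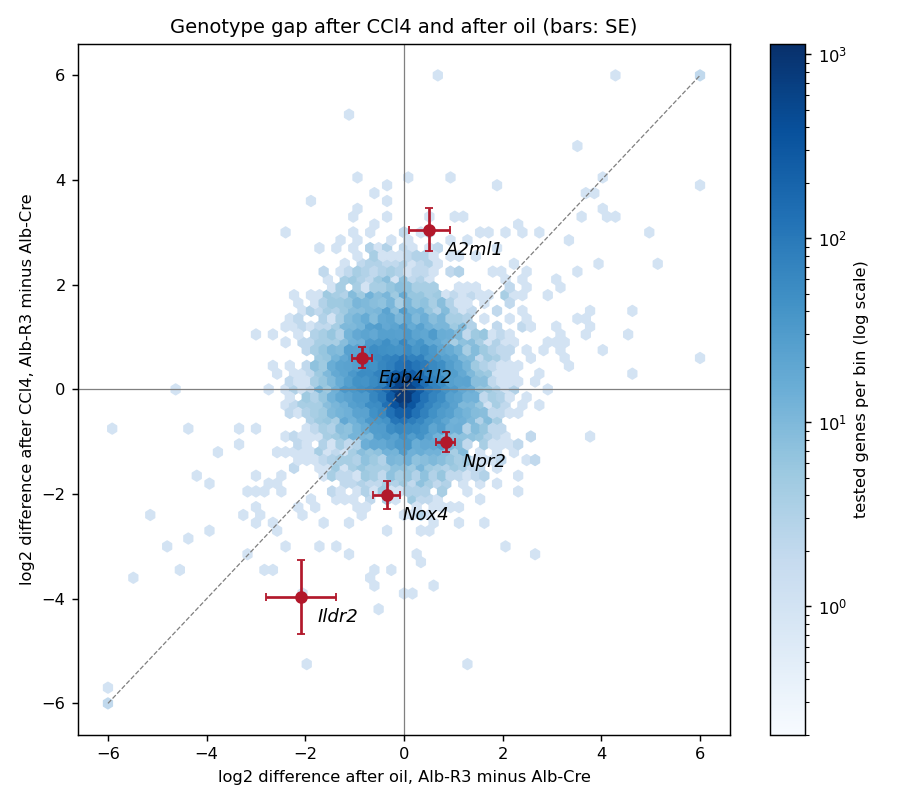
Genotype gap (log2 difference, Alb-R3 minus Alb-Cre) after CCl4 on the vertical axis and after oil on the horizontal axis for 5 members with SE bars, over the density of the 20244 tested genes (values beyond 6 drawn at 6; dashed line, equal gaps). A2ml1 lies at 3.05 after CCl4 and Ildr2 at -3.96, while Npr2 and Epb41l2 lie in quadrants of opposite sign.

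**Figure D4:**
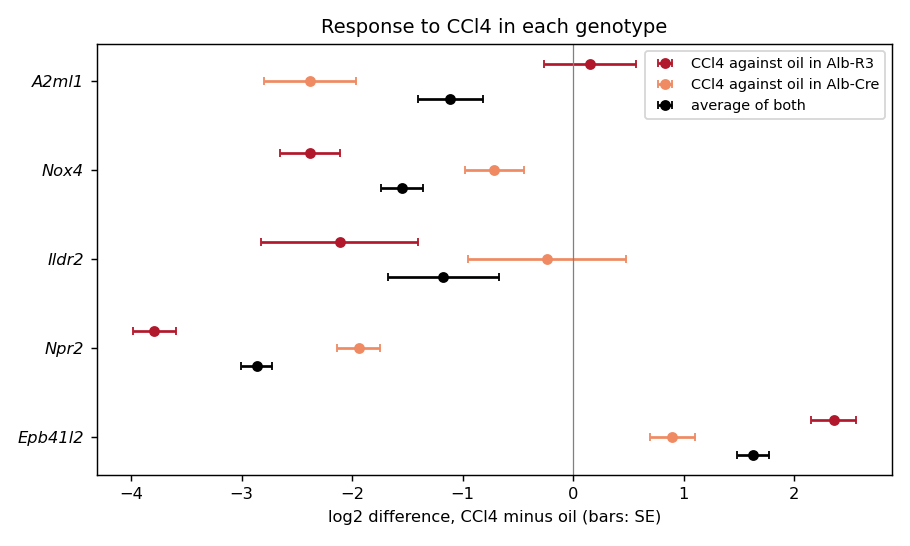
Log2 difference between CCl4 and oil (horizontal axis, with SE bars) in Alb-R3, in Alb-Cre and averaged over both for 5 members. A2ml1 is near 0 in Alb-R3 (0.16) and at -2.38 in Alb-Cre, and the other 4 have the larger response in Alb-R3.

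The other genes of the 7 family lists were tested in the genotype comparisons too. Of 84 tested list genes, 0 passed with limma after CCl4 (10 with an unadjusted p under 0.05), after oil (14) or in the difference of the gaps (17). Those unadjusted counts are 11.9%, 16.7% and 20.2% of the list genes, beside 7.77%, 6.49% and 7.49% of all tested genes. With library weights 8 passed after oil, 1 in the difference of the gaps and 0 after CCl4. Leaving out Alb-R3 CCl4 replicate 1 gave 1 after oil. In the averaged CCl4 comparison 20 of the 84 rose (23.8%, beside 12.8% of all tested genes) and 6 fell (7.14%, beside 8.78%), and the 26 calls became 15 with no filter, 16 with quantile normalization and 40 with library weights.

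The genes whose pattern was most like that of each member were ranked by Pearson's r over the 12 libraries, on the log2 scale and among 12355 genes with a mean of at least 20, as a description, since libraries of a group share treatment and genotype. For A2ml1 the nearest was Endod1, an endonuclease-domain gene (r = 0.91), with means of 22.1 in Alb-R3 CCl4 and 10.1 in Alb-Cre CCl4, against 30.1 in Alb-R3 oil and 24.1 in Alb-Cre oil libraries, followed by Praf2 and Med31 (0.83 and 0.82). For Nox4 it was Cyp4a12b (0.97), a male-biased fatty acid hydroxylase, with means of 17.8 in Alb-R3 CCl4 and 376.6 in Alb-Cre CCl4, against 453.3 in Alb-R3 oil and 633.2 in Alb-Cre oil libraries. Reads of Cyp4a12b may be divided with a very similar paralog, so its value is uncertain. Ndrg2 and Cdadc1 came next (0.96 and 0.95). Npr2 was nearest to the carboxylesterase gene Ces4a (0.98), to Cyp2d22 (0.98) and to the ubiquitin ligase gene Rnf167 (0.97). Epb41l2 was nearest to the centriole gene Cntln (0.98), to Pea15a (0.98) and to the mitochondrial ADP/ATP carrier Slc25a4 (0.98). Ildr2 had weaker neighbours, Bmyc, Tmem267 and Clec16a (0.89, 0.89 and 0.88). Fhl2 was below the level set for ranking. Among the members, Npr2 and Epb41l2 had opposite patterns over the 12 libraries (r = -0.97), and their deviations from the group means had r = 0.21. Of all pairs of members, Nox4 and Npr2 had the highest r for the deviations (0.72), with 0.81 over the libraries. Nox4 and Ildr2 had r = 0.63 for the deviations and 0.82 over the libraries.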

How the data were processed

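RNA of 12 hepatocyte samples was sequenced. The authors deposited, per the file headers, a normalized count (a signal, not whole reads) and an FPKM value per Ensembl gene. Per the submitters' processing notes, kallisto 0.44.0, edgeR and the build GRCm38.p6 were used, in roles not given. Of 35709 identifiers, 35574 matched a symbol. The most frequent non-zero value was taken as that of 1 read, of which 69.8% to 74.6% of low values were whole multiples (tolerance 0.02). Depth was then 28015141 to 39607185 estimated reads, so counting error matters for the lowest genes only.

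The linear models were fitted with limma (3.58.1, R 4.3.3) to log2(normalized count + 1) (mean-variance trend, 1 coefficient per group), over 20244 genes with at least 1 in at least 3 samples. Fold changes on this scale understate the change of low genes. The threshold was an adjusted p of 0.05 over all tested genes. The script was tested on simulated data. The members and lists were chosen with earlier results of these data known. Named were the members, Fgfr3, the 3 genes most like each member, and list genes past the threshold, at most 2 per direction of largest fold. Of those, mainly genes whose call held in each alternative are printed. Other genes are examples chosen after their values were seen. Positions are from GENCODE M21 on GRCm38, and promoters from RefSeq on GRCm38.p6. Replicate numbers did not pair the samples: deviations of same-numbered samples had r of -0.19 to 0.20 in 18 pairs, with 3 over 0.1. Alternatives were other scalings, pseudocounts, filters, weights, FPKM (pseudocount 0.1), a replicate block and leaving out each sample. Scaling to the non-mitochondrial total was chosen after seeing the data.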

Additional observations from a re-analysis of the deposited data

Results flagged for a closer look

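Npr2 and Epb41l2 stood out because each Alb-R3 library lay on one side of the Alb-Cre libraries after CCl4 and on the other side after oil. For Npr2 the genotype gap was -1.002 after CCl4 and 0.85 after oil, a difference of the gaps of -1.85 on the log2 scale. For Epb41l2 the gap was 0.61 after CCl4 and -0.86 after oil, a difference of 1.46. Since the genes were chosen on these comparisons, the difference was not tested.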

How the results depend on the processing

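The genotype gaps of A2ml1, Nox4, Ildr2, Npr2 and Epb41l2 and their averaged CCl4 effects kept their direction in each of the 22 alternatives. The fitted Fhl2 difference depended on the pseudocount, so none is given, and 4 alternatives left Fhl2 out (the filter on 6 samples, and those without any 1 of the Alb-R3 CCl4 libraries). The number of genes past the threshold was 4377 for the averaged CCl4 effect (2599 higher and 1778 lower), 6612 with library weights, 3472 to 4851 leaving out 1 library, and by direction 2152 and 2193 with quantile normalization, 4108 and 698 with FPKM and 5176 and 726 scaled to the non-mitochondrial total. The FPKM and non-mitochondrial scalings put the median of all genes at 0.15 and 0.28, and the non-mitochondrial one put it at 0.12 for the genotypes after CCl4 and 0.18 for the difference of the gaps. For Alb-R3 against Alb-Cre after CCl4 it was 35 (17 higher, 18 lower), 54 with FPKM (34 and 20), 103 with library weights, 22 and 14 by direction with the non-mitochondrial total, and 20 to 38 leaving out 1 library. Leaving out Alb-R3 CCl4 replicate 3 gave 21, and leaving out replicate 1, 2 or 3 of Alb-Cre CCl4 gave 21, 23 and 20. After oil it was 42 (20 higher, 22 lower), 23 and 15 with quantile normalization, 663 with library weights and 28 to 103 leaving out 1 library. The 103 came without Alb-R3 CCl4 replicate 1, which is in neither oil group and enters through the shared spread and the filter. For the difference of the gaps the number of genes was 0, 17 with no filter, 6 without the trend and 46 with library weights. Leaving out 1 library gave 0 to 3 (3 when Alb-R3 CCl4 replicate 1 was left out, 2 for Alb-R3 CCl4 replicate 3 and 2 for Alb-Cre oil replicate 3). The cause of these moves was not tested. The replicate block gave 3948, 28, 37 and 0 genes in the 4 comparisons and changed no call of a member, and 4 of 12 libraries correlated best with their own number. Depth limits Fhl2 alone among the members.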
